A study of Mus musculus with 14 samples.

Results

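The aryl hydrocarbon receptor gene Ahr and 5 of its best-known target genes, Ahrr, Tiparp, Cyp1a1, Cyp1a2 and Cyp1b1, were followed through 14 poly(A) RNA-seq libraries of mouse embryonic stem cells. The 6 genes were taken by symbol from the Ensembl gene rows of both deposited count tables, which hold 37991 rows each, and each of the 6 symbols had 1 row. The cells were of the J1 line, strain 129S4/SvJae, in 7 groups of 2 libraries. Experiment 1 had wild-type cells and Dnmt-TKO cells, each with DMSO (vehicle) or with PRT4165, a chemical inhibitor of the polycomb complex PRC1. Dnmt-TKO cells, called TKO below, lack Dnmt1, Dnmt3a and Dnmt3b, the genes of the enzymes that methylate DNA. Experiment 2 had wild-type, TKO and Tet1-KO Dnmt-TKO cells with no treatment listed, the last of which also lack Tet1, an enzyme that oxidises methylated cytosine. The labels do not say how many clones stand behind a genotype, so genotype and line cannot be told apart. No source used here gives the dose or duration of the inhibitor. Nothing in the labels says that the replicates came from different cultures. The p-values below therefore reflect the spread between these particular libraries, and that spread may be technical.

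The receptor is a transcription factor of the bHLH-PAS family that waits in the cytoplasm with HSP90 chaperones until a small ligand, such as a dioxin or a tryptophan metabolite, binds it. It then enters the nucleus, pairs with ARNT and binds DNA at a GCGTG core. Among the genes it switches on are the cytochrome P450 genes Cyp1a1, Cyp1a2 and Cyp1b1, whose enzymes oxidise many of the ligands, and Ahrr and Tiparp, whose products hold the receptor back. AHRR competes for the partner, and TIPARP is a mono-ADP-ribosyltransferase that modifies the receptor. In mouse embryonic stem cells Ahr has been described as kept low by pluripotency factors together with polycomb proteins, and 129 strains carry the allele that encodes a receptor of low ligand affinity.

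The sequences before the start sites are shown because the targets differ widely in CpG content, the letters that DNA methylation acts on. They come from RefSeq (build GRCm38.p6), which listed 5 of the 6 genes, Ahr being the other. Each is the 250 bases before the start, 5′ to 3′ on the strand of the gene, and capitals mark the receptor core GCGTG or its reverse complement CACGC.
Ahrr, chr13:74292332-74292581, minus strand: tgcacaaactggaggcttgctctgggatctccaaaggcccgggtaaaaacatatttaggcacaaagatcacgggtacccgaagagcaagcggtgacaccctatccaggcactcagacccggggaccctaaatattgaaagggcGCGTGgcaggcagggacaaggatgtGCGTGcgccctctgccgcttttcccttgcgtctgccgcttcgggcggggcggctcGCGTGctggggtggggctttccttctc
Tiparp, chr3:65528197-65528446, plus strand: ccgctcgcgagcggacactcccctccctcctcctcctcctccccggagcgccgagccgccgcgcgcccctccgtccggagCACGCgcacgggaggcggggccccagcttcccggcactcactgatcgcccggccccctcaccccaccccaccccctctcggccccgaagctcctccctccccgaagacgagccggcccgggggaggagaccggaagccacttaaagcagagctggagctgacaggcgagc
Cyp1a1, chr9:57697363-57697612, plus strand: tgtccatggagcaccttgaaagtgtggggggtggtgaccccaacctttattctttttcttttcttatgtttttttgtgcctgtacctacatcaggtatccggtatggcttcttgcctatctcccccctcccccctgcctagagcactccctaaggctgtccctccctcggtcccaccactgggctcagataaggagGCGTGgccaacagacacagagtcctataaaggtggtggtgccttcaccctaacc
Cyp1b1, chr17:79715062-79715311, minus strand: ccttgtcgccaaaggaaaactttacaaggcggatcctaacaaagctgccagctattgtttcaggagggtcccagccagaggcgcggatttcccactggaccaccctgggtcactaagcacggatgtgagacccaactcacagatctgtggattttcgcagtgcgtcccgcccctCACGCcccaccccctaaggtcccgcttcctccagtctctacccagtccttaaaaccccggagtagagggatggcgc

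The window of Tiparp held 28 CpG, that of Ahrr 17 and that of Cyp1b1 12. Cyp1a1 held 3, and so did Cyp1a2, which lies next to it on chromosome 9 in the opposite orientation. The median over all 32841 windows of the same length was 6, and 92.4% of them held fewer CpG than Tiparp. The core, searched on both strands, was matched 3 times before Ahrr, 1 time before each of Tiparp, Cyp1a1 and Cyp1b1, and not before Cyp1a2. It was present in 28.2% of all windows and in 57.3% of windows with at least 15 CpG, so a match is common where CpG are dense. A share of 2.77% of windows held 3 or more. A match is a run of letters and not a measured binding site, and its absence says only that these letters are not in this window.

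Libraries held 23354015 to 41844823 counts. Values below are CPM, the count of a gene scaled to a common library total after TMM correction, and differences are log2 fold changes with the standard error (SE) from edgeR's quasi-likelihood test, called at a Benjamini-Hochberg adjusted p under 0.05 over all genes tested. The 2 tables were scaled separately, so levels set side by side across experiments were not scaled together. The 10 pluripotency markers summed to 5903 and 5946 CPM in wild-type vehicle, 4988 to 5241 CPM in wild-type inhibitor, 4083 and 4118 CPM in TKO vehicle and 3059 to 3184 CPM in TKO inhibitor libraries. Untreated they summed to 7087 to 7159 CPM in wild-type and 5080 to 5285 CPM in mutant libraries. In TKO cells 8 of the 10 fell and 2 rose in each experiment, so their level was lower where Ahr was higher between genotypes, and their part in the Ahr result was not tested. Dnmt1 fell from 429 to 128 CPM in TKO cells under vehicle (log2 fold change −1.75, edgeR adjusted p = 1.11e-19), and Tet1 fell from 766 to 168 CPM in Tet1-KO TKO cells against TKO cells (−2.19, adjusted p = 7.77e-06). Counts per gene do not tell a deleted part of a transcript from the rest, so what remained in the knockout lines can come from undeleted exons.

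Ahr, the receptor gene, was low in wild-type cells and about an order of magnitude higher in TKO cells. In wild-type cells under vehicle it had 15 and 25 counts, or 0.536 and 0.777 CPM, and in TKO cells under vehicle 336 and 370 counts, or 11.3 and 12.4 CPM. The lowest TKO library was far above the highest wild-type one. The difference was 4.15 on the log2 scale (SE 0.18, edgeR adjusted p = 4.8e-16), a 17.8-fold ratio of pooled counts. Of the 16711 genes tested, 3.43% rose more. Among the 6 genes, 5 rose in this comparison and Tiparp was not called, where 34.8% of all genes tested rose. All 6 were above the filter on low counts in experiment 1, but only Ahr and Tiparp were above it in every group. Cyp1a1, Cyp1a2 and Cyp1b1 were kept through TKO libraries alone, and Ahrr through those and wild-type cells with inhibitor. A gene kept only through the group where it is high had to differ, so the count of 5 is given as a description.

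**Figure D1:**
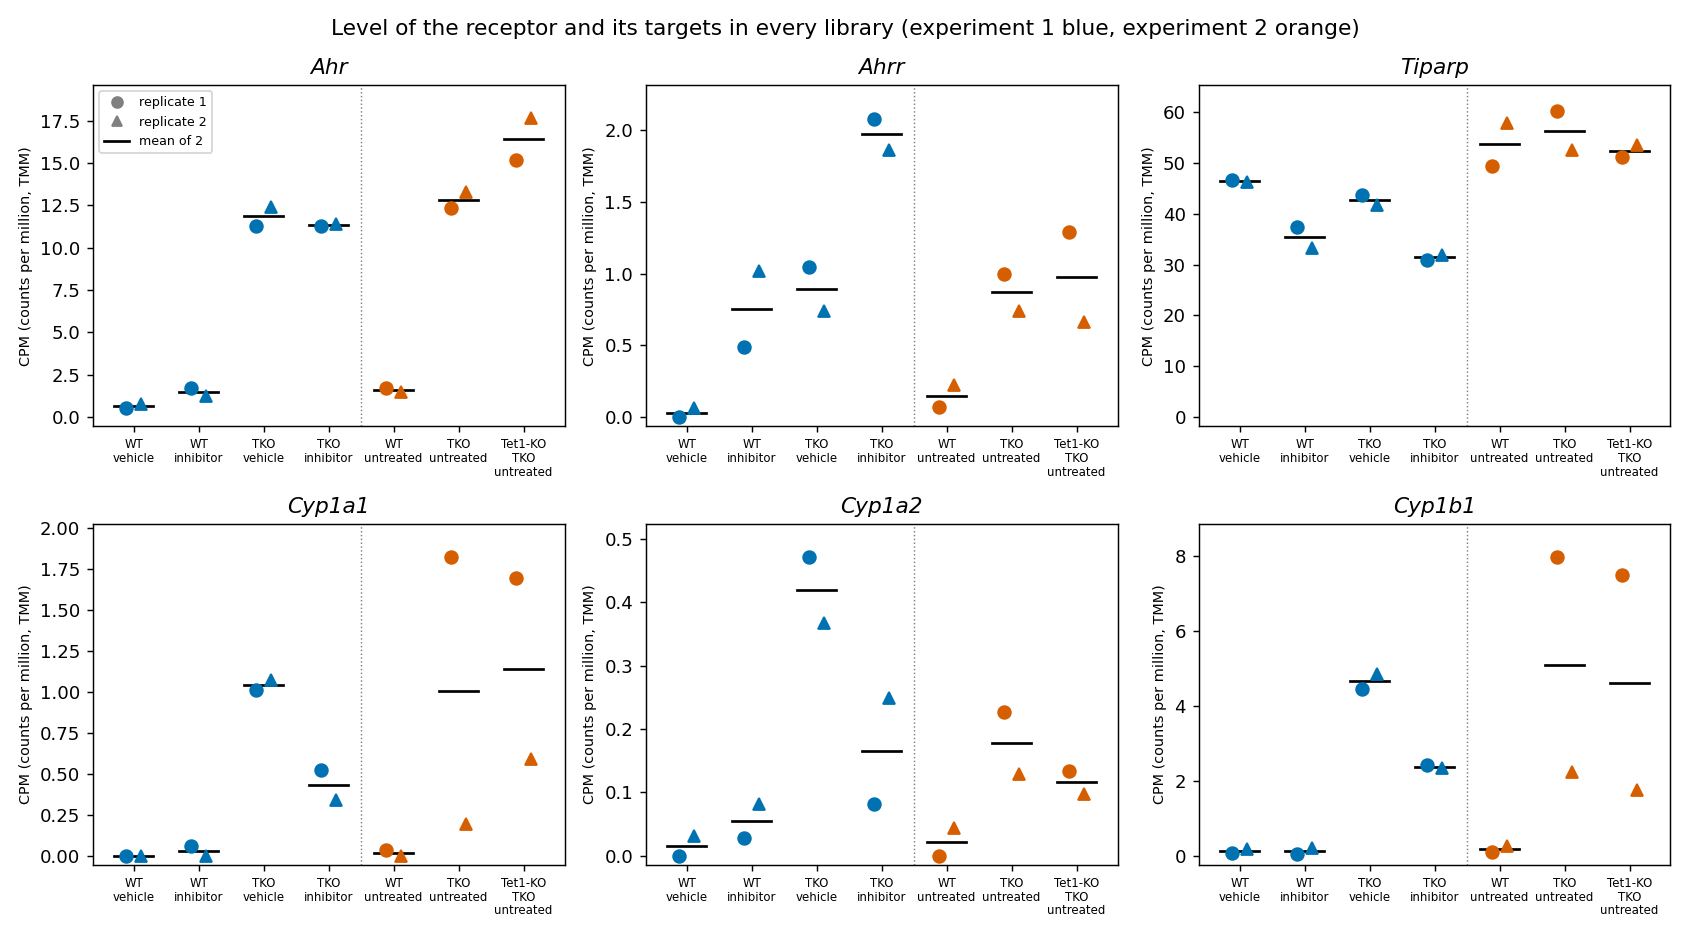
CPM of the 6 genes in each of the 14 libraries, by group on the horizontal axis, with circles for replicate 1, triangles for replicate 2 and a bar for their mean; the vertical scale differs between panels. Ahr sits at 0.536 to 1.74 CPM in wild-type libraries and at 11.3 to 17.6 CPM in all libraries without the Dnmt genes, while Tiparp stays within 31 to 60.2 CPM.

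Without treatment the same 2 genotypes differed less at Ahr. Wild-type cells had 48 and 34 counts (1.69 and 1.5 CPM) and TKO cells 434 and 411 counts (12.3 and 13.3 CPM). The groups again did not overlap, and the difference was 2.99 (SE 0.18, edgeR adjusted p = 1.2e-07), a 7.94-fold ratio of pooled counts. In this comparison 25.9% of the 16303 genes tested rose, and Ahr, Ahrr, Cyp1a1 and Cyp1b1 were among them. Of these, only Ahr was above the filter in every group of experiment 2. Ahrr and Cyp1b1 were kept through the mutant lines and Cyp1a1 through Tet1-KO TKO cells, so their rises over wild-type cells in this experiment are given as a description. Cyp1a2 was below the filter in experiment 2 and was not tested. In 1 fit over all 14 libraries, the genotype difference of Ahr was 1.13 lower untreated than under vehicle (log2 −1.13, SE 0.29, edgeR adjusted p = 0.0175), where 12.9% of 17246 genes tested were called in either direction. None of the other 5 genes was called. TKO levels were close in both experiments, and it was the wild-type level that stood at 0.657 CPM in one and 1.60 CPM in the other. That call was lost on leaving out wild-type vehicle replicate 1 (−0.90, adjusted p = 0.108), TKO vehicle replicate 2 (−1.06, 0.0576), wild-type untreated replicate 1 (−1.02, 0.0514) or TKO untreated replicate 1 (−1.07, 0.0516). Experiment, culture and vehicle differ together here and cannot be told apart.

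Tet1-KO TKO cells had the highest Ahr of any group, with 566 and 719 counts or 15.2 and 17.6 CPM. Both libraries were above both TKO libraries, by 0.36 on the log2 scale (SE 0.14, edgeR adjusted p = 0.0953), which was not called. The 95% interval of the difference ran from 0.05 to 0.67. Of all genes tested, 22.0% were called in this comparison in either direction, and none of the 5 tested genes of the 6 was. The intervals were −0.77 to 1.07 for Ahrr, −0.35 to 0.14 for Tiparp, −1.37 to 1.65 for Cyp1a1 and −1.43 to 1.11 for Cyp1b1, so those of Ahrr, Cyp1a1 and Cyp1b1 include a 2-fold rise. Against wild-type cells, where 26.3% of genes tested rose, Tet1-KO TKO cells had Ahr higher by 3.35 (SE 0.18, adjusted p = 3.95e-08), Ahrr by 2.78 (SE 0.60, adjusted p = 0.00212), Cyp1a1 by 5.60 (SE 1.43, adjusted p = 0.0062) and Cyp1b1 by 4.66 (SE 0.94, adjusted p = 0.00133). The last 3 were tested only because they were high in the mutant lines, as above. The comparisons with TKO and Tet1-KO TKO cells share the wild-type libraries. The exons of Ahr overlap those of Gm48236 on the opposite strand over 127 bases, and no source used here states whether counting used strand, so reads there cannot be assigned.

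The PRC1 inhibitor raised Ahr in wild-type cells and left no called change in TKO cells. Wild-type cells with inhibitor had 61 and 31 counts, or 1.74 and 1.26 CPM, both above the vehicle libraries. The rise was 1.21 (SE 0.27, edgeR adjusted p = 0.000887), a 2.32-fold ratio of pooled counts. TKO cells with inhibitor had 412 and 366 counts, or 11.3 and 11.4 CPM, which overlapped the TKO vehicle libraries. There the difference was −0.06 (SE 0.11, adjusted p = 0.673, 95% interval −0.29 to 0.16). Ahr's response to the inhibitor was lower in TKO than in wild-type cells by 1.27 (interaction −1.27, SE 0.29, edgeR adjusted p = 0.0118), where 3.89% of genes tested were called in either direction. Ahr was the only one of the 6 genes called there. The interaction rests on wild-type levels near 1 CPM: without wild-type vehicle replicate 1 it was −1.05 (adjusted p = 0.0519), and without wild-type inhibitor replicate 1 it was −0.99 (adjusted p = 0.153). In the order of levels in experiment 1, TKO vehicle and TKO inhibitor cells came first and overlapped, followed by wild-type inhibitor and then wild-type vehicle cells, each without overlap with the next. TKO cells with inhibitor were above wild-type cells with vehicle by 4.08 (SE 0.18, adjusted p = 4.94e-16).

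The repressor gene Ahrr was nearly silent in wild-type cells under vehicle and rose with the inhibitor in both genotypes. It had 0 and 2 counts in wild-type vehicle libraries and 17 and 25 in wild-type inhibitor libraries, or 0.485 and 1.02 CPM. In TKO cells it had 31 and 22 counts (1.04 and 0.737 CPM) under vehicle and 76 and 60 (2.08 and 1.86 CPM) with inhibitor. Only the wild-type inhibitor and TKO vehicle groups overlapped. The inhibitor raised Ahrr by 4.27 in wild-type cells (SE 0.74, edgeR adjusted p = 7.24e-05). Against the 2 vehicle counts the ratio was 21.2, with a 95% counting interval of 5.51 to 180.8. Both of those counts are in wild-type vehicle replicate 2. Without it the wild-type group is at 0 and the fitted values, which are then no bounds, were 7.49 for this rise, 7.77 for the genotype difference under vehicle and 8.92 with both perturbations. In TKO cells the rise was 1.15 (SE 0.31, adjusted p = 0.00436), and leaving out TKO vehicle replicate 2 (0.90, adjusted p = 0.0861) or TKO inhibitor replicate 1 (1.04, adjusted p = 0.0507) ended this call.

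The genotype difference of Ahrr under vehicle was 4.58 (SE 0.71, edgeR adjusted p = 3.6e-06), with a ratio of pooled counts of 26.8 and a counting interval of 7.05 to 226.7. With both perturbations it was 5.73 (SE 0.59, adjusted p = 4.23e-09). The interaction was −3.12 (SE 0.90, adjusted p = 0.0505), just outside the threshold; the value was the same with no filter on low counts, where its adjusted p was 0.00541. Without treatment wild-type cells had 2 and 5 counts, TKO cells 35 and 23, and Tet1-KO TKO cells 48 and 27, which overlapped the TKO libraries. The untreated genotype difference was 2.62 (SE 0.61, adjusted p = 0.00371). It is a description, since Ahrr passed the filter in experiment 2 through the mutant lines alone. In experiment 1 Ahrr was above the filter in every group except wild-type vehicle, so its differences from that group are a description too.

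Tiparp was the exception among the targets chosen at the outset. The further listed targets that were tested, given below, mostly did not rise in TKO cells either. Under vehicle the wild-type libraries gave 46.6 and 46.2 CPM and the TKO libraries 43.6 and 41.8 CPM. The difference of −0.12 (SE 0.06, 95% interval −0.24 to 0.00, edgeR adjusted p = 0.0785) was not called. With library size alone in place of TMM scaling it was 0.03, as that choice moved the median of all genes from 0.01 to 0.16. Without treatment the wild-type libraries stood at 49.5 and 58.0 CPM, those of TKO cells at 60.2 and 52.5 CPM and those of Tet1-KO TKO cells at 51.2 and 53.5 CPM. The 3 groups overlapped. The untreated difference between TKO and wild-type cells was 0.07 (SE 0.11, adjusted p = 0.636, 95% interval −0.18 to 0.32).

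The inhibitor lowered Tiparp in both genotypes, in non-overlapping groups. It fell to 37.5 and 33.4 CPM in wild-type cells (log2 −0.38, SE 0.06, edgeR adjusted p = 2.48e-05) and to 31.0 and 31.9 CPM in TKO cells (−0.44, SE 0.06, adjusted p = 3.57e-06). The interaction was −0.06 with a 95% interval of −0.24 to 0.12. Under the inhibitor the 2 genes that restrain the receptor moved in opposite directions in both genotypes, Ahrr up and Tiparp down. In wild-type cells 3 of the 6 genes were called with the inhibitor, where 37.6% of genes tested were called in either direction. In TKO cells 4 of the 6 were called, where 39.5% of genes tested were. The exons of Tiparp overlap those of 4931440P22Rik on the opposite strand over 223 bases.

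**Figure D2:**
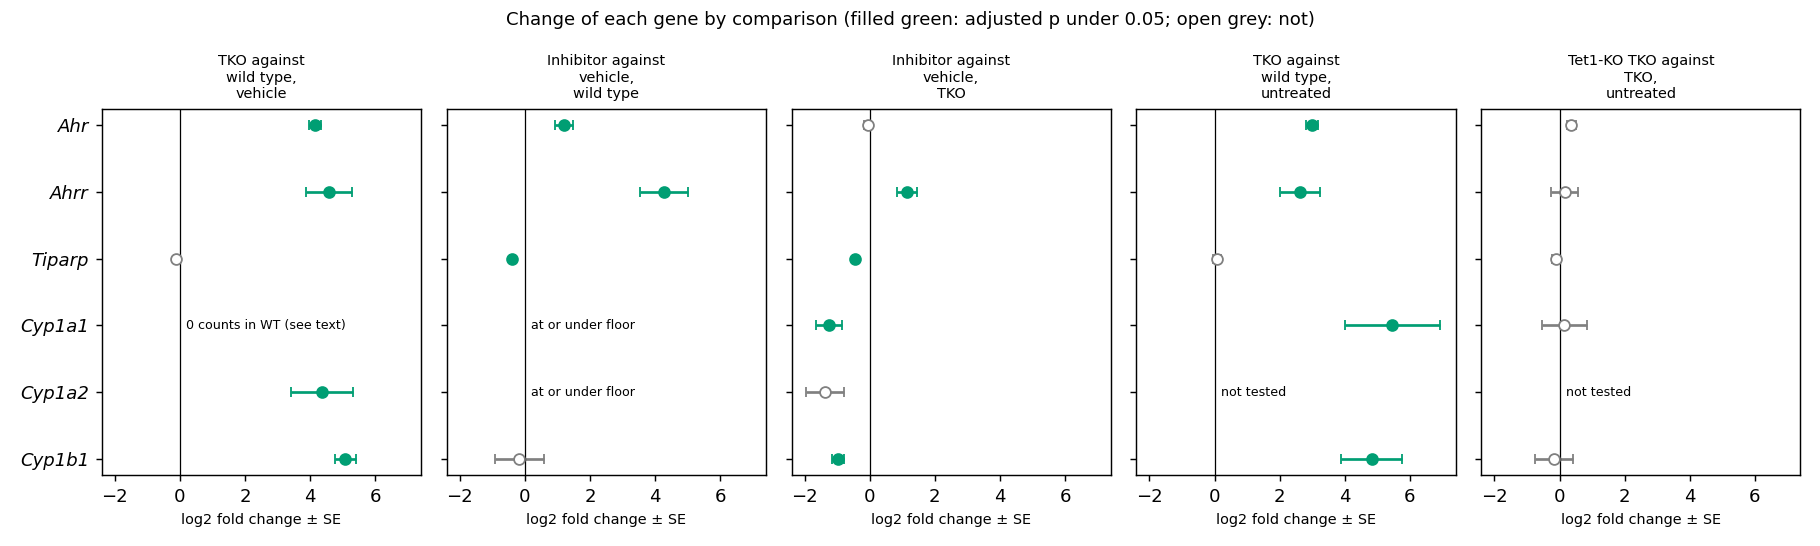
log2 fold change with its SE for each gene (rows) in 5 comparisons (panels); filled green points have an edgeR adjusted p under 0.05. In the left panel Ahr, Ahrr, Cyp1a2 and Cyp1b1 lie between 4.15 and 5.09 with Tiparp at −0.12, and in the third panel Ahrr lies at 1.15 while Cyp1a1 and Cyp1b1 lie at −1.25 and −0.97.

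The P450 genes were at or near 0 in wild-type cells and measurable without the Dnmt genes. In experiment 1 they passed the filter on low counts through TKO libraries alone. Their rises over wild-type cells, with the p-values, are therefore given as a description. Cyp1b1, whose enzyme oxidises oestrogens and polycyclic hydrocarbons, had 2 and 6 counts in wild-type vehicle libraries against 132 and 145 in TKO vehicle libraries, or 4.44 and 4.85 CPM. It rose by 5.09 (SE 0.34, edgeR adjusted p = 1.79e-12). Cyp1a1, the classical readout of the activated receptor, had 0 counts in both wild-type vehicle libraries and 30 and 32 in TKO vehicle libraries (1.01 and 1.07 CPM). Set against a floor of 3 counts over the wild-type group, it was at least 20.9-fold higher (adjusted p = 1.98e-07). Cyp1a2, an enzyme made mainly in liver, had 0 and 1 counts against 14 and 11, a rise of 4.36 (SE 0.96, adjusted p = 0.000292) and a ratio of 25.2 with a counting interval of 4.13 to 1036. The 1 wild-type count is in replicate 2, and without that library the fitted values of Cyp1a2 were 6.69 here and 5.34 with both perturbations. These libraries have no molecular identifiers, so floors and counting intervals speak of counting error alone.

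In TKO cells with the inhibitor Cyp1b1 and Cyp1a1 fell, Cyp1a2 was not called and neither was Ahr. The Cyp1b1 call held under every alternative run, and the Cyp1a1 call did not. Cyp1b1 fell to 88 and 75 counts, or 2.41 and 2.33 CPM, below both vehicle libraries (log2 −0.97, SE 0.19, edgeR adjusted p = 0.000241). Cyp1a1 fell to 19 and 11 counts, or 0.520 and 0.342 CPM (−1.25, SE 0.39, adjusted p = 0.0133). That call was lost with DESeq2 (−1.26, adjusted p = 0.14) and without TKO vehicle replicate 1 (−1.31, adjusted p = 0.0684), TKO vehicle replicate 2 (−1.23, 0.0939) or TKO inhibitor replicate 2 (−1.0, 0.135). Cyp1a2 had 3 and 8 counts, and its value of −1.36 was not called (SE 0.59, adjusted p = 0.0689). Cyp1a2 passed the filter through the TKO vehicle libraries alone, so its lower value with inhibitor is given as a description. In wild-type cells Cyp1b1 had 2 and 5 counts with inhibitor and was not called (95% interval −1.71 to 1.38). Cyp1a1 had 2 and 0 counts and Cyp1a2 1 and 2, at or under the floor in both groups, so no fold is given.

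Even with the inhibitor the P450 genes in TKO cells remained above wild-type vehicle cells. These differences are a description too, since the genes passed the filter through TKO libraries alone. Cyp1b1 was higher by 4.12 (SE 0.38, edgeR adjusted p = 6.04e-10) and Cyp1a1 at least 8.76-fold (adjusted p = 3.06e-05). Cyp1a2 was higher by 3.0 (SE 1.16, adjusted p = 0.0228), a call lost with DESeq2 (3.32, adjusted p = 0.0742), without wild-type vehicle replicate 1 (2.22, 0.147) and without TKO inhibitor replicate 2 (2.06, 0.243). Tiparp was lower by 0.56 there (log2 −0.56, SE 0.06, adjusted p = 1.11e-08). All 6 genes were called in this comparison, where 76.2% of genes tested were called in either direction, so the count is not a result about these genes in particular.

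Without treatment, Cyp1b1 and Cyp1a1 rose in both lines without the Dnmt genes, and replicate libraries differed severalfold. Cyp1b1 had 3 and 6 counts in wild-type cells. In TKO cells it had 280 counts in replicate 1 and 69 in replicate 2, or 7.96 and 2.23 CPM, and in Tet1-KO TKO cells 279 and 71, or 7.49 and 1.74 CPM. All 4 were above the wild-type libraries, and the TKO difference was 4.82 (SE 0.93, edgeR adjusted p = 0.0011). Cyp1a1 had 1 and 0 counts in wild-type cells, 64 and 6 in TKO cells and 63 and 24 in Tet1-KO TKO cells. Its TKO difference of 5.46 (SE 1.46, adjusted p = 0.00825) was not called without TKO replicate 1 (3.07, adjusted p = 0.119). With 1 wild-type count the ratio of pooled counts was 54.0, with a counting interval of 9.37 to 2161. Cyp1a2 had 0 and 1 counts in the wild-type libraries, 8 and 4 counts in those of TKO cells and 5 and 4 counts in those of Tet1-KO TKO cells.

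The replicate split was shared by both mutant lines and was not present at the receptor. The library taken as Tet1-KO TKO replicate 1 has a letter B added to its column name, which no label explains. Replicate 1 over replicate 2 was 3.57 for Cyp1b1 in TKO and 4.30 in Tet1-KO TKO cells, and 9.39 and 2.87 for Cyp1a1. For Ahr the same ratios were 0.93 and 0.861, for Tiparp 1.15 and 0.957, and for Ahrr 1.34 and 1.94. Over the 12977 genes with a mean of at least 1 CPM in both groups, genes were ranked by the smaller of their replicate ratios after adding 0.05 CPM to each value, a ranking chosen after these values were seen. Cyp1b1 came in at rank 2 and Cyp1a1 at rank 3, behind Gm6136, and only Gm6136 and Cyp1b1 had both ratios at 3 or more. Another target of the receptor, the quinone reductase gene Nqo1, came in at rank 12 with ratios of 1.59 and 1.74. Of the other listed targets ranked, Nfe2l2 ran the same way to a smaller extent, at rank 286 (1.2 and 1.21). Nqo1 (21.9 and 17.4 CPM) and Nfe2l2 (70.2 and 60.4 CPM) were higher in replicate 1 of wild-type cells too. Cyp2s1 and Slc7a5, an amino acid transporter gene, did not share the split. They were at rank 10707 (0.823 and 0.914) and rank 9023 (0.888 and 0.889). At the other end, Fos, Fosb and Atf3, immediate early and stress genes, were the 3 genes with the opposite split of at least 3-fold in both groups. In wild-type cells Cyp1b1 ran the other way, from 3 and 6 counts. In experiment 1 the ratio for Cyp1b1 was 0.915 in TKO vehicle and 1.03 in TKO inhibitor cells.

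**Figure D3:**
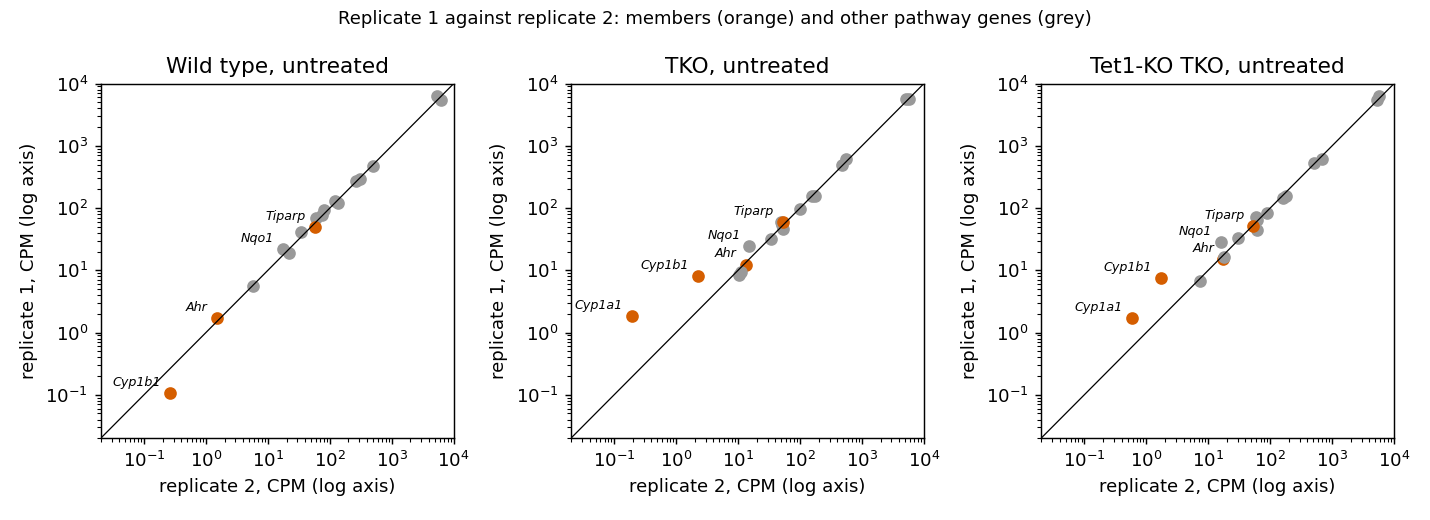
Replicate 1 against replicate 2 in CPM (log axes) for the 3 untreated groups, with the members in orange, other pathway genes in grey and a line of equality; only genes with a mean of at least 1 CPM in both mutant groups and a value above 0 in both libraries are drawn. Cyp1b1 and Cyp1a1 lie above the line in TKO cells (ratios 3.57 and 9.39) and in Tet1-KO TKO cells (4.30 and 2.87), while Ahr and Tiparp lie near it.

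Per kilobase of exon, which allows genes to be compared, the receptor was scarce beside its partner in every group. In wild-type vehicle cells Ahr had a level of 0.107 ± 0.0277 CPM per kilobase (SD, n = 2) and Arnt 11.3 ± 0.199. In TKO vehicle cells Ahr reached 1.92 ± 0.124 and Arnt 13.1 ± 0.0304. Tiparp, at 10.6 and 9.80 CPM per kilobase in these groups, was the most abundant of the 6 genes in both. In TKO vehicle cells Cyp1b1 followed Ahr at 0.796 ± 0.0498, then Cyp1a1 at 0.373 ± 0.0156, Cyp1a2 at 0.209 ± 0.0362 and Ahrr at 0.0943 ± 0.0230.

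In TKO against wild-type cells the tested genes of the rest of the pathway changed less than Ahr. From a list of 27 other pathway genes, 18 were tested in each experiment. In TKO vehicle cells 6 rose and 9 fell, where 34.8% of all genes tested rose and 34.2% fell, with a median log2 of −0.13 beside 0.01 over all genes; with library size alone 6 rose and 7 fell. Arnt rose by 0.21 (SE 0.05, edgeR adjusted p = 0.00044) and Arnt2, a partner used mostly in neurons, by 0.71 (SE 0.13, adjusted p = 2.63e-05). The chaperone gene Hsp90ab1 fell by 0.33 (log2 −0.33, adjusted p = 1.12e-06), and Hsp90aa1 was at −0.15 (adjusted p = 0.00497) but at 0.00 with library size alone.

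Genes of the list that changed at least 2-fold were few. Epas1, a related bHLH-PAS factor that also pairs with ARNT, fell from 192 to 56.4 CPM under vehicle (−1.77, SE 0.05, edgeR adjusted p = 5.8e-20) and from 126 to 49.6 CPM untreated (−1.35, SE 0.15, adjusted p = 1.34e-05). Ido2, a tryptophan-degrading enzyme gene whose pathway yields receptor ligands, rose under vehicle from 0.178 to 0.906 CPM (2.29, SE 0.49, adjusted p = 0.00023). Untreated it was not called between TKO and wild-type cells (0.99, SE 0.49, adjusted p = 0.114), and in Tet1-KO TKO cells it was above TKO cells by 2.40 (SE 0.34, adjusted p = 0.000555). Against wild-type cells Ido2 was higher in Tet1-KO TKO cells by 3.39, where Ahr was higher by 3.35. Ido2 was below the filter on low counts in every wild-type library of both experiments. It was tested through the mutant lines alone, so its rises over wild-type cells are given as a description. Il4i1, an amino acid oxidase gene of the same kind, fell by 1.27 untreated (log2 −1.27, adjusted p = 0.00513). Scin, an actin-severing protein gene known as a receptor target, rose by 1.25 under vehicle (adjusted p = 0.0188) and by 1.44 untreated (adjusted p = 0.0215). No wild-type group had Scin above the filter in both libraries, so its rises too are given as a description. Cyp2s1, another P450 target, was lower by 1.01 in untreated TKO cells (log2 −1.01, adjusted p = 0.00014) and was at −0.01 under vehicle (adjusted p = 0.951). Of the 13 further targets on the list, 6 were tested; 1 rose and 3 fell under vehicle, where 34.8% of all genes tested rose and 34.2% fell, and 1 rose and 2 fell untreated, where 25.9% of all genes tested rose and 24.3% fell. In Tet1-KO TKO cells against wild type, Cul4b, a ubiquitin ligase gene, was higher by 1.12 (adjusted p = 2.44e-06) and Aldh3a1, an aldehyde dehydrogenase target, lower (−2.3, adjusted p = 0.00225).

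With the inhibitor, 6 of the 18 genes rose and 1 fell in wild-type cells, and 6 rose and 2 fell in TKO cells, with medians of 0.08 and −0.01. Of all genes tested, 19% rose and 18.7% fell in wild-type cells, and 19.9% rose and 19.6% fell in TKO cells. Hsp90ab1 rose by 0.43 in wild-type and 0.42 in TKO cells (edgeR adjusted p = 1.16e-07 and 1.24e-07), and Hsp90aa1 by 0.36 and 0.27 (adjusted p = 1.31e-06 and 4.37e-05). Arnt2 fell in both (−0.42 and −0.41, adjusted p = 0.0232 and 0.00887), and Arnt was called in neither (−0.04 and 0.03). No called inhibitor change on this list reached 2-fold.

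**Figure D4:**
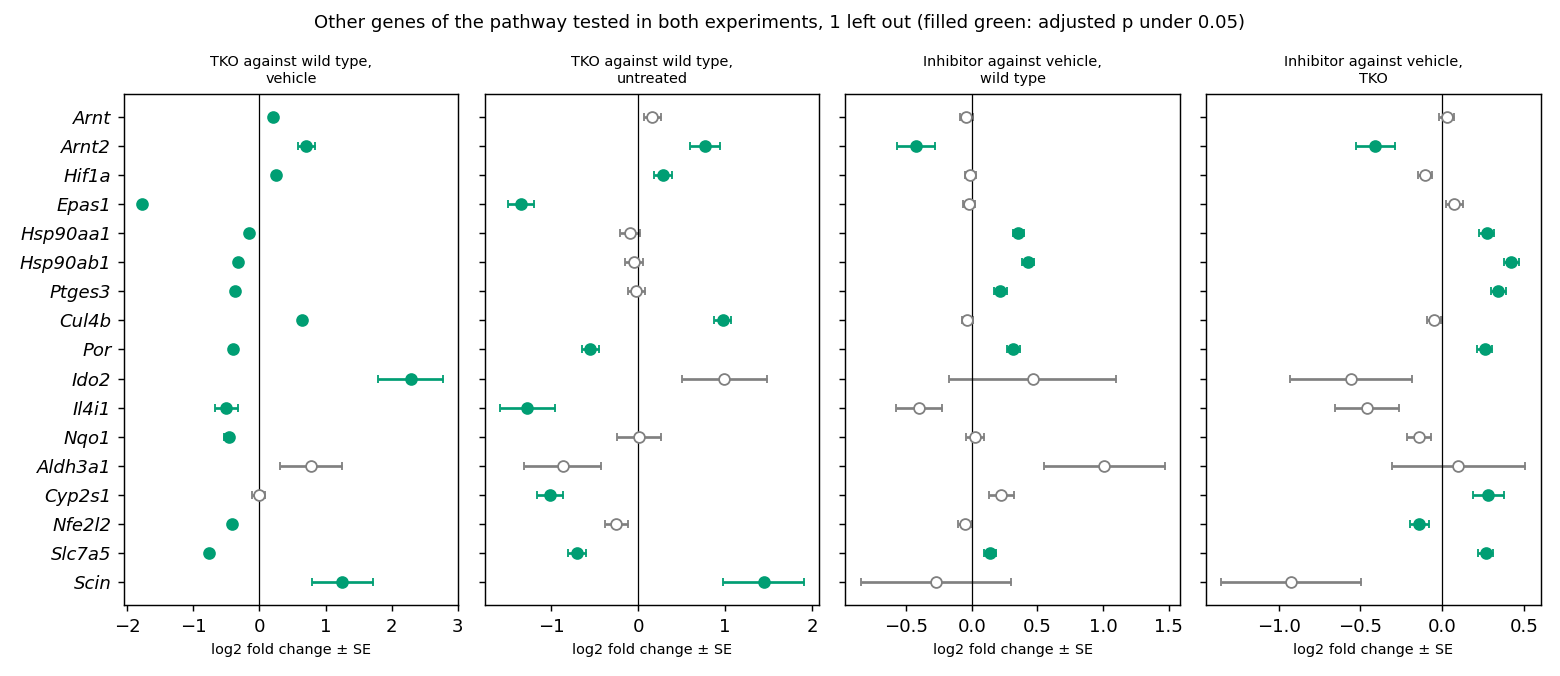
log2 fold change with its SE for the other pathway genes tested in both experiments, with 1 left out (rows) in 4 comparisons (panels, each with its own horizontal scale); filled green points have an edgeR adjusted p under 0.05. Epas1 lies furthest left in both genotype panels (−1.77 and −1.35), and the inhibitor panels show Hsp90aa1 and Hsp90ab1 between 0.27 and 0.43.

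The nearest tested genes on each side of the members were measured too. Next to Ahr, Snx13 and Tspan13 rose by 0.31 and 0.63 in TKO vehicle cells (edgeR adjusted p = 0.000804 and 3.62e-08). Next to Ahrr, Exoc3 and Pdcd6 fell (−0.23 and −0.63, adjusted p = 0.000388 and 7.85e-11). Rmdn2, beside Cyp1b1, rose by 1.40 under vehicle and 1.57 untreated (adjusted p = 3.17e-08 and 8.23e-05), while Atl2 on the other side was at 0.05 and 0.08 and was not called. Csk and Edc3, which flank the Cyp1a1 and Cyp1a2 pair, were not called in either genotype comparison of TKO with wild-type cells. Beside Tiparp, 4931440P22Rik was at −0.69 under vehicle (adjusted p = 0.0658) and fell untreated (−1.29, adjusted p = 0.00474), and Gm5847 was at −0.84 and −0.93 and was not called (adjusted p = 0.137 and 0.0579). With the inhibitor Snx13 fell in wild-type cells (−0.37, adjusted p = 0.000633), where Ahr was at 1.21, and in TKO cells (−0.28, adjusted p = 0.00351), where Ahr was at −0.06. The median change of all genes on the chromosome of a member differed from that of the other autosomes by at most 0.112 on the log2 scale in the 9 comparisons, the value for chromosome 13 with Ahrr under vehicle.

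The patterns most like those of the members over the 14 libraries, with each experiment's mean removed, are given as a description; the points share genotype. For Ahr these were Plagl1 (Pearson r 0.996), Slc25a1 (0.993) and Kitl (0.992), among 2887 genes compared, of which 505 were over 0.95. Under vehicle Plagl1 went from 0.0645 CPM in wild-type cells to 29.6 CPM in TKO cells and Kitl from 0.594 to 15 CPM. For Cyp1b1 they were Pramel6 (0.972), Calcoco2 (0.968) and Gpr160 (0.968), with 62 genes over 0.95. For Tiparp they were Calhm5 (0.887), Zfp808 (0.885) and Zfp101 (0.835), and no gene was over 0.95. Zfp808, a zinc finger gene, had a mean of 76.8 CPM in wild-type vehicle and 40.3 CPM in wild-type inhibitor cells. Among the members, r was 0.919 between Ahr and Cyp1b1, 0.905 between Ahr and Cyp1a1, 0.842 between Ahr and Ahrr, and −0.323 between Ahr and Tiparp.

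Markers of other cell types were summed because fibroblasts, which are often used as feeder cells, express Ahr and Cyp1b1. The 10 fibroblast markers summed to 13.7 to 14.6 CPM in wild-type vehicle and 10.1 to 10.6 CPM in TKO vehicle libraries, and to 17.0 to 17.6 CPM without treatment in wild-type cells, 8.56 to 10.8 CPM in TKO cells and 5.42 to 8.42 CPM in Tet1-KO TKO cells. With inhibitor the sums overlapped, at 13.8 to 15.1 CPM in wild-type and 12.6 to 14.1 CPM in TKO libraries. The sum follows Pdgfrb and Thy1, which fell under vehicle (−0.71 and −1.70, edgeR adjusted p = 8.79e-05 and 1.65e-09). Of the 6 fibroblast markers tested under vehicle, 3 rose and 2 fell. The 3 that rose passed the filter on low counts through TKO libraries alone. Their rises, with the p-values, are therefore given as a description, and their count is not compared with the share of all genes. The genes that rose were Col1a2, from 0.0824 to 0.554 CPM (adjusted p = 0.000415), and Col3a1 and Postn, from 0 counts in wild-type cells to 1.01 and 1.09 CPM in TKO cells (adjusted p = 2.14e-07 and 3.77e-08). Dcn, Lum, Prrx1 and Twist2 were below the filter and were not tested. Under vehicle Dcn, Lum and Prrx1 had 0 counts in the wild-type group. Their totals over the TKO group were 9, 4 and 9 counts. Twist2 ran the other way, with 7 counts in the wild-type group against 3 in the TKO group. The sum of the 10 trophoblast markers moved with genotype. It was 76.3 to 86.3 CPM in wild-type vehicle and 829 to 862 CPM in TKO vehicle libraries. Untreated it was 54.2 to 60.2 CPM in wild-type, 147 to 157 CPM in TKO and 509 to 697 CPM in Tet1-KO TKO cells. The sum follows Krt8 and Krt18, at 461 and 253 CPM in TKO vehicle cells. Under vehicle 8 of the 10 rose and 2 were not called. In untreated TKO cells 9 rose, where 25.9% of all genes tested rose, and Eomes fell from 5.14 to 3.22 CPM. Some, such as Elf5 and Tpbpa, passed the filter through mutant libraries alone, so these counts are a description. The 7 primitive endoderm markers summed to 49.5 to 210 CPM over the 14 libraries, and in all 3 untreated groups were lower in replicate 1 than in replicate 2 (wild-type cells 115 and 202 CPM, TKO cells 49.5 and 83.9 CPM, Tet1-KO TKO cells 96.8 and 210 CPM). The part of fibroblast-like, trophoblast-like or endoderm-like cells in the levels of Ahr and its targets was not tested, and in bulk RNA fewer cells of a type and less RNA per cell cannot be told apart.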

How the data were processed

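Poly(A) RNA of 14 libraries was prepared with the NEBNext Ultra kit, per the labels' protocols. The authors deposited raw counts, whole numbers of reads per Ensembl gene with no normalization, in 1 table per experiment. Bowtie 0.12.8, TopHat2 2.0.2, HTSeq 0.5.3p9 and mm9 are named, per the submitters' processing notes. No source used here gives the strand setting or the annotation release.

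The members and lists were chosen with earlier results of these data known. Symbols, gene order and exon lengths came from GENCODE M21, a later build than mm9, which named 32919 of 37991 rows. edgeR 4.0.16 (R 4.3.3, limma 3.58.1) fitted each experiment separately with all its groups: filterByExpr with thresholds of 10 counts per gene and 15 in total, TMM scaling, quasi-likelihood F-tests, two-sided, and Benjamini-Hochberg adjustment over 16711 genes in experiment 1 and 16303 in experiment 2. A fit over all 14 libraries compared the experiments over 17246 genes. The 95% intervals use the fits' SE. For groups at 0, the limit used was 3 counts per group. The procedure was tested on simulated data.

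Named genes were the 6 members, Arnt, Arnt2, Hsp90aa1 and Hsp90ab1, up to 4 called pathway genes per direction and comparison that changed at least 2-fold, the nearest tested neighbours, the 3 genes most like a member, and the targeted genes. 1 gene that this rule took is not reported here. Other named genes were chosen after their values were seen.

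Replicate numbers were checked for pairing by correlating deviations from group means. In experiment 2 the correlations were 0.151, 0.193 and 0.466, all over 0.1, so the numbers may pair the libraries. The main fits did not use this pairing, and a replicate block was fitted only as an alternative. The pairing rests on the data and not on the labels. No pair of libraries agreed within sampling noise (chi-square per degree of freedom 1.81 to 37.1). Alternatives were other scaling, DESeq2 1.42.0, no filter, fewer groups in the fit, a replicate block and leaving out each library.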

Additional observations from a re-analysis of the deposited data

Results flagged for a closer look

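Both entries are differences between groups, and both concern Ahr. Its response to the PRC1 inhibitor differed between TKO and wild-type cells by −1.27 on the log2 scale (SE 0.29, edgeR adjusted p = 0.0118), from 1.21 in wild-type cells to −0.06 in TKO cells. Its genotype difference differed between untreated and vehicle-treated cells by −1.13 (SE 0.29, edgeR adjusted p = 0.0175), from 4.15 under vehicle to 2.99 untreated. Both differences were tested directly, and both use the wild-type vehicle libraries, with 15 and 25 counts of Ahr.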

How the results depend on the processing

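Of 542 alternatives over the 6 genes, 504 kept direction and call, 16 lost the call, 3 gained it and 19 turned direction. The cause of each change was not tested. With library size alone, Tiparp in TKO against wild-type vehicle cells was 0.031 (adjusted p = 0.65), levels moved by −6.23% to 5.75%, and the share of called genes that rose went from 50.5% to 63.5% under vehicle, 51.9% to 61.5% with both perturbations, 52.9% to 40.6% for Tet1-KO TKO against TKO cells and 58.1% to 27.1% for untreated minus vehicle. Without a filter, the Ahrr interaction was called at −3.12. With DESeq2, Cyp1a1 with inhibitor in TKO cells (−1.26) and Cyp1a2 with both perturbations (3.32) were not called, and the interaction called 415 genes against 650. The replicate block changed no call of a member, and gave for example 2.99 for Ahr in TKO against wild-type untreated cells. In experiment 1 same-numbered libraries had correlations of −0.093 to 0.112. The highest, between wild-type and TKO cells with inhibitor, was also over 0.1 and the others were not, so pairing there was not established. Leaving out 1 library at a time gave these log2 ranges where a direction or call changed. For the interaction, Ahr −1.58 to −0.99, Ahrr −6.33 to −2.30, Cyp1b1 −1.66 to 0.19, the count of called genes 304 to 913 and Tiparp −0.14 to 0.031. For the genotype difference untreated minus vehicle, Ahr −1.43 to −0.90, Cyp1a1 −4.94 to 0.030, Cyp1a2 −3.76 to 1.25, Cyp1b1 −1.43 to 0.50 and the count of called genes 980 to 3299. For the inhibitor in TKO cells, Ahrr 0.90 to 1.40 and Cyp1a1 −1.62 to −1.0. For Tet1-KO TKO against TKO cells, Ahrr −0.39 to 0.56, Cyp1a1 −0.80 to 2.53, Cyp1b1 −1.55 to 1.05 and the count of called genes 1633 to 2468. For TKO against wild-type cells untreated, Cyp1a1 3.07 to 8.10 and Tiparp −0.051 to 0.18. For TKO cells with inhibitor against wild-type vehicle cells, Cyp1a2 2.06 to 5.34. For the inhibitor in wild-type cells, Cyp1b1 −1.16 to 0.70. For Tet1-KO TKO against wild-type cells, Tiparp −0.15 to 0.081. Where this left a group with 1 library, that library was assumed to vary like the other groups. Depth limits the genes near 0: Cyp1a1, Cyp1a2 and Ahrr held 0 to 5 counts in wild-type vehicle and untreated libraries.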
